A study of Homo sapiens with 6 samples.

Results

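The genes described here fold, check and move proteins in the endoplasmic reticulum (ER), the compartment in which secreted and membrane proteins are made. They were chosen by name, as genes of this machinery, with earlier results of these arrays known. The 38 symbols given stand for 37 genes, because VIMP is the older symbol of SELENOS, and 32 of them were tested among 7035 tested genes. Growing polypeptides enter the ER through the SEC61 channel, fold with the help of chaperones, lectins and enzymes that form disulphide bonds, and, when they fail to fold, are sent back to the cytosol for breakdown, a route called ER-associated degradation (ERAD). When unfolded protein builds up, the sensors IRE1 (gene ERN1), ATF6 and PERK (gene EIF2AK3) start the unfolded protein response, which raises many of the same genes. Secretory epithelia such as the prostate gland make heavy use of this machinery.

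Values came from 6 Affymetrix arrays hybridised with RNA of PC3, a human prostate cancer cell line, grown in RPMI medium. The 3 arrays labelled PSMA (replicates 4 to 6) are of cells transfected with the pLNCX-PSMA plasmid, which carries prostate-specific membrane antigen, the product of FOLH1. The 3 arrays labelled control (replicates 1 to 3) are called wild type in their titles and genotype, and vector only in their source label. Per the labels' protocols, transfection with FuGENE 6 and puromycin selection applied to both plasmids. The labels state neither whether the selected cells were a clone or a pool nor that replicates came from separate cultures. The p-values therefore reflect the spread among these arrays, which may be purely technical. Values are GCRMA intensities in arbitrary units, and the number of arrays limits the precision.

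The signal of FOLH1 went against the labels. The single probe set that the annotation gives to FOLH1 and no other gene read 24.4 to 32 on arrays labelled PSMA, against 59.7 to 61.5 on arrays labelled control. The brightest one shared with the near-identical FOLH1B read 8.58 to 15.1 on arrays labelled PSMA, against 417 to 548 on arrays labelled control. Every direction below therefore follows the deposited labels, and "rose" and "fell" refer to the arrays labelled PSMA, where FOLH1 signal was lower. All 5 epithelial markers examined (KRT8, KRT18, KRT19, EPCAM and CDH1) were expressed on both sets of arrays, with a summed intensity of 13233 to 13716 on arrays labelled PSMA and 16514 to 17012 on arrays labelled control. All 3 leucocyte markers and all 3 luminal prostate markers with a probe set here lay below the filter, as did 3 of 4 fibroblast markers (not COL1A1) and 2 of 3 endothelial markers (not PECAM1). An Affymetrix control probe set for 28S ribosomal RNA (middle part) read 670.5 to 679 on arrays labelled PSMA and 1459.6 to 1570.5 on arrays labelled control. The one for its 5' part read 3816 to 4459 and 5049 to 6397. All GAPDH control probe sets were also lower on arrays labelled PSMA without overlap, the 3' one at 9108 to 9447 against 10093 to 10254. Those for beta-actin and for the 3' part of 28S overlapped between the groups. The part of these differences in the results was not tested.

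The ER genes moved in both directions and mostly by little. Of the 32 tested genes 8 rose, 8 fell and 16 did not pass the limma threshold, an adjusted p of 0.05, so 50% passed. Among all tested genes 63.6% passed, 30.1% higher and 33.5% lower on arrays labelled PSMA. The median log2 difference was -0.01 over the ER genes and -0.01 over all tested genes, and the median size without regard to sign was 0.14 and 0.22. The 3 values of one group lay wholly above those of the other in 18 of the 32 genes (56.2%), against 69.5% of all tested genes. Tested against a minimum fold of 1.5 (limma treat), 1 gene of the 32 was called, ERO1A (adjusted p = 0.0078), against 7.48% of all tested genes. For the 16 genes that did not pass, the 95% intervals of the differences all lay within -0.28 to 0.27 on the log2 scale, that is from 1.22-fold lower to 1.2-fold higher. In RNA of a whole culture, fewer cells of a kind and less RNA per cell cannot be told apart.

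**Figure D1:**
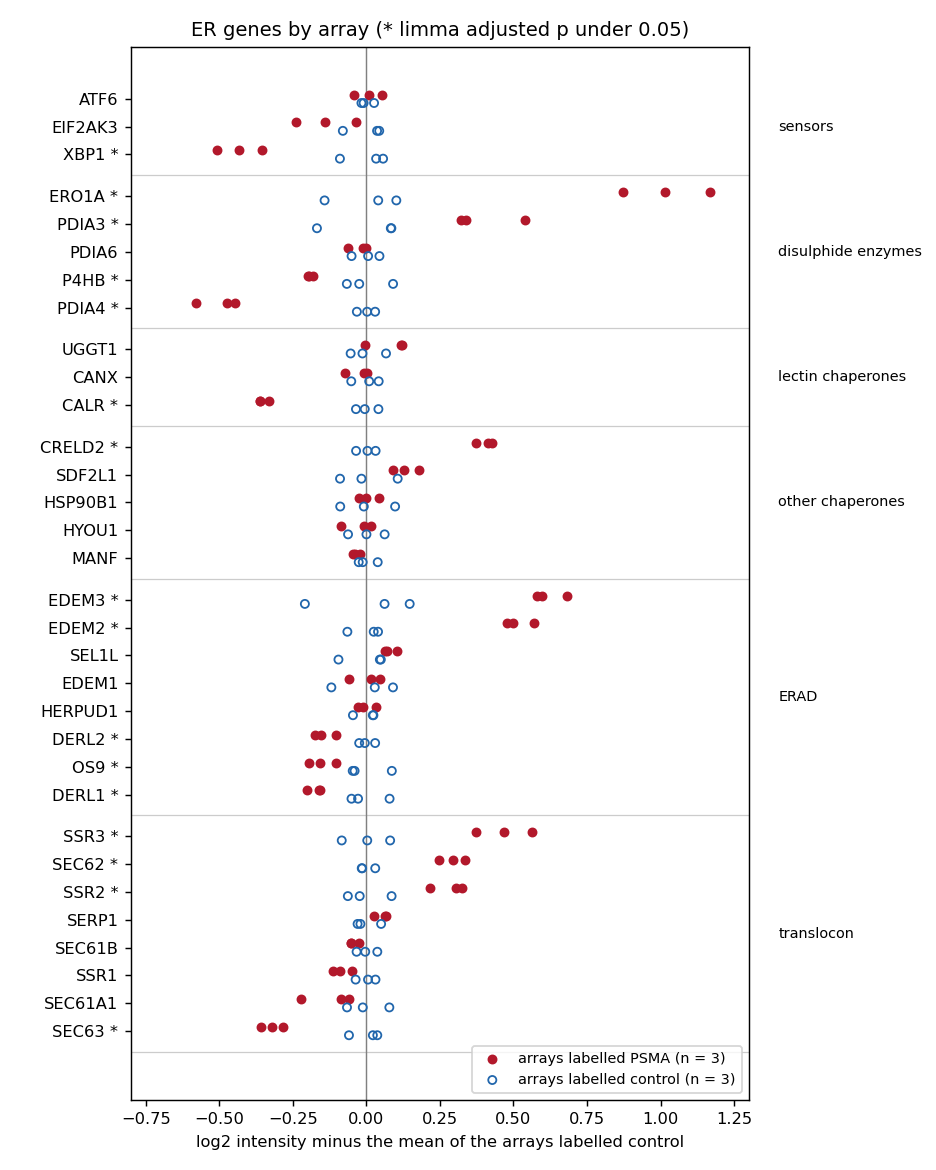
Log2 intensity of each tested ER gene on each array, minus the mean of the 3 arrays labelled control, by role. Filled points are arrays labelled PSMA and open points arrays labelled control. ERO1A lies farthest to the right, and 16 of the 32 genes carry the asterisk of an adjusted p under 0.05.

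Of the 5 genes that were not tested, ERN1, which encodes the sensor and nuclease IRE1, lay below the filter on dim probe sets. To be tested, a probe set had to exceed 52.5, the median of the whole table, on 3 or more of the 6 arrays. ERN1 read 18, 17.7 and 19 on arrays labelled PSMA and 14.9, 16.2 and 21.2 on arrays labelled control, and no array of either group reached that median. PDIA5, a protein disulphide isomerase, has a probe set shared in the annotation with the microRNA gene MIR7110. That probe set read 321, 336 and 349.5 on arrays labelled PSMA and 376, 394 and 412 on arrays labelled control, with every array labelled PSMA lower. It was called lower (log2 difference -0.23, limma adjusted p = 0.0055 in the fit over probe sets), and was not counted for either gene. SYVN1, SEC61G and SELENOS have no probe set named in the annotation used here.

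Promoter sequence shows which of these genes carry the DNA element of the unfolded protein response, and is given here because genes that share the element passed in both directions. The ER stress response element (ERSE) is CCAAT and CCACG with 9 bases between them, and is known to be bound by NF-Y at its first part and by ATF6 or XBP1 at its second. RefSeq promoter windows were found for 35 of the 37 genes, not for PDIA3 and DERL1. Each ran from 250 bases before to 50 after an annotated start (GRCh38.p14). A gene could have several windows, and the whole table held 35116 windows for 27305 genes. Both strands were searched with no mismatch. The element stood in a window of 7 of the 35 genes (20%), against 25 of 27305 genes in the whole table (0.0916%). In the lines below the capitals mark its fixed parts, written in the direction of the element.
XBP1: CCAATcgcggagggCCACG
CALR: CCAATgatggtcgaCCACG
CRELD2: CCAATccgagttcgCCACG
HSP90B1, upstream copy: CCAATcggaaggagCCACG
HSP90B1, downstream copy: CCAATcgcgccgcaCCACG
CANX: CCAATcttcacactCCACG
PDIA6: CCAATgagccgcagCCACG
SERP1: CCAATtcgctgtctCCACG

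Of these 7 genes XBP1 and CALR fell, CRELD2 rose, and HSP90B1, CANX, PDIA6 and SERP1 did not pass. Over all tested genes with the element in a window, 11 in number, 2 rose, 5 fell and 4 did not pass, with a median log2 difference of -0.03. The related ERSE-II (ATTGG and CCACG with 1 base between) stood in HERPUD1, HYOU1 and SDF2L1 (8.57% of the 35 genes, against 0.0696% of all genes). None of these passed. Over all 13 tested genes with ERSE-II in a window, 2 rose, 2 fell and 9 did not pass. Another element, UPRE (TGACGTGG), which XBP1 is known to bind, stood in SEC62, SSR3 and HYOU1 (8.57% of the 35 genes, against 0.927% of all genes). SEC62 and SSR3 rose and HYOU1 did not pass. Calls over all tested genes with UPRE were not counted, so these calls have no share of such genes to stand beside. The HYOU1 copy of UPRE overlaps one of its 2 ERSE-II copies. For XBP1, CANX, PDIA6 and SSR3 the element stood in some but not all windows of the gene. In CANX, PDIA6 and SSR3 each window with the element lies wholly inside the annotated span of the gene. Such a match is a description of the letters in the window and not evidence of binding.

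The whole windows of 4 genes that passed are printed to show the contrast, with the fixed parts of any ERSE in capitals on the strand of the gene. XBP1, CALR and CRELD2 each hold 1 copy in the printed window, whose first base lies at -52, -225 and -80 counted from the start used for that window. In CALR and CRELD2 the element runs on the other strand, so the capitals read as its reverse complement. ERO1A, which had the largest difference of the 32 genes, holds none of the elements searched.
XBP1, chr22:28800520-28800819, minus strand: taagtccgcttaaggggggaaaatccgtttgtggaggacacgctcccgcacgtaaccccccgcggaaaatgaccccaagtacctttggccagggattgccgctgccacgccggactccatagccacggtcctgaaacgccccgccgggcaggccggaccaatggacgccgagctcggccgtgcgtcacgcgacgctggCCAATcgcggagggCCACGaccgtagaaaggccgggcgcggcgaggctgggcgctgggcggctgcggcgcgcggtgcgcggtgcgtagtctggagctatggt
CALR, chr19:12938359-12938658, plus strand: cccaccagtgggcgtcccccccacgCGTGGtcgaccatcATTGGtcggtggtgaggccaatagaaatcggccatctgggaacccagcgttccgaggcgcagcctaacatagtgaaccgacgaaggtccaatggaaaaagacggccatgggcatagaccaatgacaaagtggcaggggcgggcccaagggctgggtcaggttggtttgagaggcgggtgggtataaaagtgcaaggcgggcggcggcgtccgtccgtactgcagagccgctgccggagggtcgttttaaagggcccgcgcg
CRELD2, chr22:49918384-49918683, plus strand: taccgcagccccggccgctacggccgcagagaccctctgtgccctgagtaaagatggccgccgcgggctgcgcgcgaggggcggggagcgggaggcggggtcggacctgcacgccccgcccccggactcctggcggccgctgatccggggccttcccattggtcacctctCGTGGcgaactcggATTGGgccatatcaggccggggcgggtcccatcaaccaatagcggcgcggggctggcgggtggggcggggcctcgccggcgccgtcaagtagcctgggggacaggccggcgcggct
ERO1A, chr14:52695509-52695808, minus strand: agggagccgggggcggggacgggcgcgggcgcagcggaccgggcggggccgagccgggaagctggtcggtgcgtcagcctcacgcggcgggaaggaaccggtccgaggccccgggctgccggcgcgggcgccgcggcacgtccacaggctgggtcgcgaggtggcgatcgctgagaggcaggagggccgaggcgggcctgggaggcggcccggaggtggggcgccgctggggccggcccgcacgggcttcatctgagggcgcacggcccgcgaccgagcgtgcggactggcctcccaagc

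Among the sensors and their effector, XBP1 fell. XBP1 encodes the transcription factor whose mRNA IRE1 splices when the ER is stressed. It read 195, 186 and 206 on arrays labelled PSMA, against 274, 269.9 and 248 on arrays labelled control, without overlap (1.35-fold lower, log2 difference -0.43, SE 0.058, limma adjusted p = 0.00023). Its promoter holds the ERSE printed above. The probe set was not taken to separate the spliced from the unspliced mRNA. ATF6, a membrane-bound transcription factor released by proteolysis, read 224, 217 and 209.7 on arrays labelled PSMA, against 213, 214 and 219.6 on arrays labelled control. Its groups overlapped, and the difference of 0.01 did not pass (95% interval -0.09 to 0.11). EIF2AK3, whose product PERK slows translation by phosphorylating eIF2alpha, read 223, 194 and 208 on arrays labelled PSMA, against 235, 236 and 217 on arrays labelled control. Its groups overlapped, since PSMA replicate 4 lay above control replicate 3, and the difference of -0.14 did not pass (adjusted p = 0.082), although it passed without replicate 3 of the control arrays (-0.18, adjusted p = 0.043) and without replicate 4 of the PSMA arrays (-0.19, adjusted p = 0.03).

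The enzymes of disulphide bonding held the largest change and split by gene. ERO1A, the oxidase that recharges protein disulphide isomerase and is known to be induced in hypoxia, read 597, 537 and 486 on arrays labelled PSMA, against 273, 285 and 241 on arrays labelled control. The lowest value of the arrays labelled PSMA exceeded the highest of the arrays labelled control by a wide margin (2.03-fold higher, log2 difference 1.02, SE 0.087, limma adjusted p = 1.6e-05). PDIA3, a disulphide isomerase that works with the lectin chaperones and in the peptide-loading complex of HLA class I, read 1976, 1952 and 2270.3 on arrays labelled PSMA, against 1655, 1657 and 1391 on arrays labelled control (1.32-fold higher, log2 difference 0.40, SE 0.085, limma adjusted p = 0.0031). Replicate 6 was the highest of its group and control replicate 3 the lowest of its own.

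In the family of disulphide isomerases PDIA4, an isomerase strongly induced by ER stress, fell: it read 1261, 1359 and 1384 on arrays labelled PSMA, against 1845, 1926 and 1889.8 on arrays labelled control (1.41-fold lower, log2 difference -0.50, SE 0.049, limma adjusted p = 3.6e-05). P4HB, the founding disulphide isomerase and a subunit of collagen prolyl 4-hydroxylase, read 2711, 2723 and 2743 on arrays labelled PSMA, against 3061, 2973 and 3316 on arrays labelled control (log2 difference -0.19, SE 0.05, limma adjusted p = 0.0093). Neither gene's groups overlapped. PDIA6, another isomerase of the family, differed by -0.02 and did not pass (95% interval -0.13 to 0.08), and none of its 4 expressed probe sets passed. ERO1A and its best known partner P4HB thus had opposite signs.

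**Figure D2:**
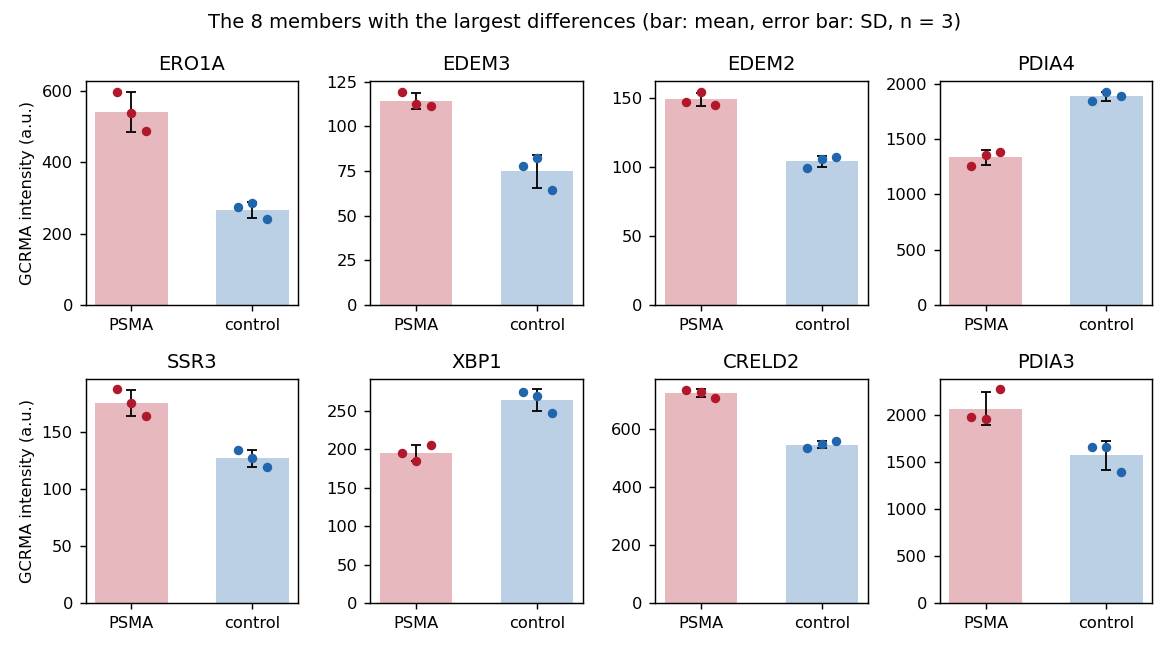
GCRMA intensity (arbitrary units) of the 8 ER genes with the largest log2 differences, arrays labelled PSMA on the left and arrays labelled control on the right of each panel. Bars are means, error bars are SD (n = 3) and points are single arrays. In every panel the points of the groups do not overlap.

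Of the calnexin and calreticulin cycle, which holds newly made glycoproteins in the ER until they fold, CALR alone passed among the 3 genes tested. That is 33.3%, against 63.6% of all tested genes. Calreticulin, its soluble lectin, read 1085, 1064 and 1063 on arrays labelled PSMA, against 1361, 1405 and 1333 on arrays labelled control (1.28-fold lower, log2 difference -0.35, SE 0.042, limma adjusted p = 0.00011), with no overlap. CALR and CANX both hold an ERSE among the sequences above. CANX, which encodes the membrane-bound lectin calnexin, differed by -0.03 (95% interval -0.13 to 0.08) on its brightest probe set. One of its 2 other probe sets fell by 0.13 (limma adjusted p = 0.027 in the fit over probe sets). UGGT1, which re-glucosylates misfolded glycoproteins so that the lectins rebind them, differed by 0.08 (95% interval -0.04 to 0.20). The separate test of whether CALR and CANX differ in response was not run.

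Among the other chaperones and stress-induced proteins of the ER lumen CRELD2 rose and the other 4 did not pass. That is 20% passed, against 63.6% of all tested genes. CRELD2, a secreted and ER-resident protein induced by ER stress, read 734, 729 and 709 on arrays labelled PSMA, against 534, 548 and 559 on arrays labelled control (1.32-fold higher, log2 difference 0.40, SE 0.042, limma adjusted p = 5e-05). Among the genes printed above with an ERSE, CRELD2 alone rose on the brightest probe set, while 2 dimmer probe sets of SERP1 also rose. SDF2L1, a component of the ER chaperone complex, was higher by 0.13 without passing (adjusted p = 0.073). It passed without replicate 3 of the control arrays (0.19, adjusted p = 0.013). HSP90B1 (the HSP90 of the ER, also called GRP94), HYOU1 (a large HSP70-like chaperone) and MANF (a stress-induced trophic factor) differed by 0.01, -0.03 and -0.04. HSP90B1 also has 2 brighter probe sets shared in the annotation with MIR3652, of which the brightest read 4122, 4073 and 4291 on arrays labelled PSMA and 4656, 4652 and 4452 on arrays labelled control without overlap. It was called lower (log2 difference -0.14, limma adjusted p = 0.026 in the fit over probe sets), and was not counted for HSP90B1.

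Of the 8 ERAD genes tested 2 rose, 3 fell and 3 did not pass, so 62.5% passed, against 63.6% of all tested genes. EDEM2 and EDEM3 belong to a family that trims mannose from misfolded glycoproteins and so marks them for removal. EDEM3 read 119, 112 and 111 on arrays labelled PSMA, against 77.6, 82.3 and 64.3 on arrays labelled control (1.54-fold higher, log2 difference 0.62, SE 0.086, limma adjusted p = 0.00029). EDEM2 read 147, 155 and 145 on arrays labelled PSMA, against 99.6, 106 and 107 on arrays labelled control (1.43-fold higher, log2 difference 0.52, SE 0.048, limma adjusted p = 2.8e-05). Both sets of values were free of overlap, whereas EDEM1, also of the family and a known XBP1 target, overlapped and differed by 0.002 (95% interval -0.14 to 0.14).

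The derlins, membrane proteins of the channel through which ERAD substrates leave, were lower by small amounts. DERL1 read 1632, 1635 and 1584 on arrays labelled PSMA, against 1789, 1761 and 1927 on arrays labelled control (log2 difference -0.17, SE 0.048, limma adjusted p = 0.012), while its other expressed probe set was lower by 0.11 without passing. DERL2 fell by 0.14 (adjusted p = 0.016). OS9, a lectin that reads the trimmed glycans, fell by 0.15 (adjusted p = 0.031). The call of DERL2 was lost without replicate 5 of the PSMA arrays (-0.13, adjusted p = 0.068). That of OS9 was lost without replicate 5 or 4 of the PSMA arrays (-0.15, adjusted p = 0.081 and -0.13, adjusted p = 0.095) and without replicate 3 of the control arrays (-0.11, adjusted p = 0.073). SEL1L, the scaffold of the SYVN1 ubiquitin ligase, was higher by 0.08 and HERPUD1, a stress-induced cofactor of that ligase, differed by -0.0034, and neither passed. The dimmest expressed SEL1L probe set was lower by 0.39 (limma adjusted p = 0.0024), opposite in sign to the brightest one.

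Of the 8 translocon genes tested 3 rose, 1 fell and 4 did not pass, among them both tested subunits of the channel. Thus 50% passed, against 63.6% of all tested genes. SEC61A1, the pore subunit, differed by -0.12 (95% interval -0.26 to 0.01) and SEC61B, a small subunit, by -0.04 (95% interval -0.14 to 0.05). SEC62 and SEC63 encode partner proteins that act with the channel in post-translational import, and they went opposite ways. SEC62 read 1036, 1003 and 1067 on arrays labelled PSMA, against 837, 836 and 863 on arrays labelled control (1.23-fold higher, log2 difference 0.29, SE 0.043, limma adjusted p = 0.00042). SEC63, a membrane protein with a J domain that recruits the HSP70 of the lumen, read 526, 499.7 and 513 on arrays labelled PSMA, against 657, 650.5 and 615 on arrays labelled control (1.25-fold lower, log2 difference -0.32, SE 0.046, limma adjusted p = 0.00034). In both genes the groups did not overlap, and the 2 expressed probe sets of each passed in its direction.

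The translocon-associated protein complex, which helps some signal sequences open the channel, had both directions among its subunits. SSR3 read 187, 175 and 164 on arrays labelled PSMA, against 134, 127 and 119.6 on arrays labelled control (1.38-fold higher, log2 difference 0.47, SE 0.063, limma adjusted p = 0.00024). SSR2 read 2124, 2254 and 2287 on arrays labelled PSMA, against 1798, 1749 and 1939 on arrays labelled control (1.22-fold higher, log2 difference 0.28, SE 0.054, limma adjusted p = 0.0018). SSR1 was lower by 0.08 without passing, although its groups did not overlap. One of its 3 other probe sets fell by 0.13 (limma adjusted p = 0.027 in the fit over probe sets). SSR4, the fourth subunit, taken from the list of other pathway genes, fell by 0.21 (limma adjusted p = 0.0064). SERP1, a stress-associated protein that stabilises membrane proteins at the channel, differed by 0.05 on its brightest probe set and did not pass. Its 2 other probe sets rose by 0.18 and 0.19 (limma adjusted p = 0.025 and 0.013).

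Several probe sets on the array read 15 of the 32 genes, and in 10 of these, EDEM3 included, all probe sets gave the same call. No gene had probe sets that passed in opposite directions. In 5 genes (CANX, HSP90B1, PDIA6, SEL1L and SSR1) the sign differed between probe sets, and none of the 5 passed on its brightest probe set. CALR fell on all 3 of its probe sets, by 0.35, 0.34 and 0.57. The second EDEM3 probe set read 61.3, 71.4 and 68.8 on arrays labelled PSMA and 42.6, 45.3 and 38.5 on arrays labelled control. It exceeded the filter value of 52.5 only on the arrays labelled PSMA, so it had to be higher and is no second support for EDEM3. ERO1A, XBP1, CRELD2, EDEM2, PDIA3, DERL2, SSR2 and SSR3 each rest on 1 expressed probe set.

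**Figure D3:**
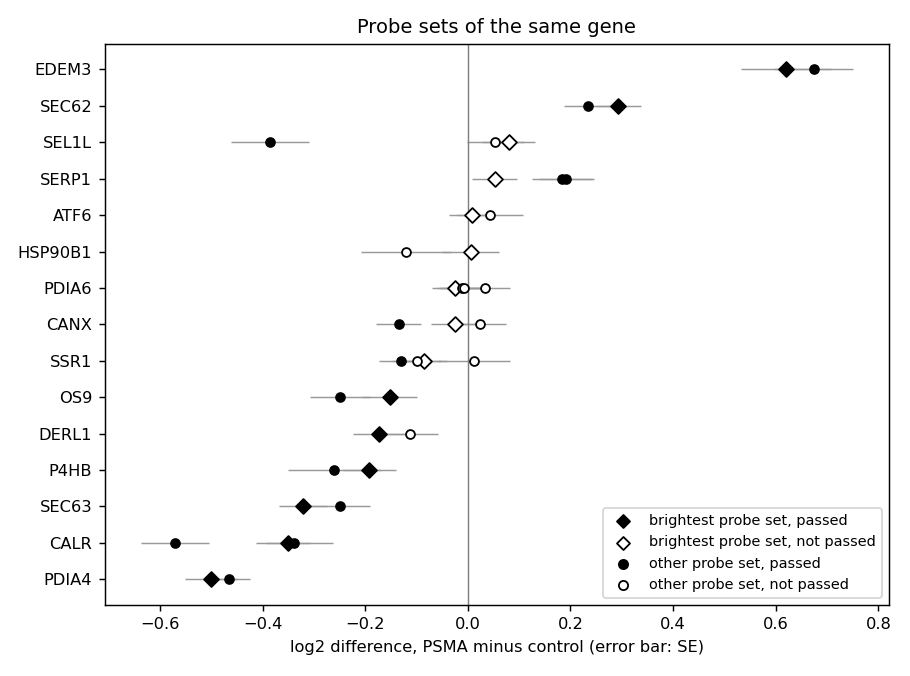
Log2 difference (PSMA minus control, with SE) of every expressed single-gene probe set of the 15 ER genes that have more than 1. Diamonds are the brightest probe set of a gene, circles the others, and filled symbols passed limma over all probe sets. The points of SEC62, OS9, P4HB, SEC63, CALR and PDIA4 are all filled and lie on 1 side of 0, the circle of EDEM3 passed the filter on dim probe sets only through the arrays labelled PSMA, and SEL1L has a filled point to the left and open ones to the right.

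Neighbouring genes on the chromosome moved with some of the ER genes. For each gene the 7 nearest tested genes on either side, in RefSeq order, were taken (11 in all for EDEM1, near a chromosome end). EDEM3, on chromosome 1, had a neighbour median of 0.45 against its own 0.62, with 11 of 14 neighbours higher and 3 lower. ERO1A, on chromosome 14, had a neighbour median of 0.29 with 11 of 14 higher, and its own difference exceeded that by 0.73. Its next neighbours included PTGER2 (2.08) and FERMT2 (1.81), which differed by more than ERO1A, and TMX1 (0.39), itself an ER oxidoreductase. PDIA4, on chromosome 7, had a neighbour median of -0.28 with 9 of 14 lower. Smaller neighbour medians of the gene's own sign stood beside EDEM2 (0.19), PDIA3 (0.15) and SEC63 (-0.15), among others. Over all tested genes 30.1% were higher and 33.5% lower.

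Some other genes differed from the median of their neighbours. XBP1 fell by 0.43 beside a neighbour median of 0.07, CALR fell by 0.35 beside 0.0013, CRELD2 rose by 0.40 beside 0.05, SSR3 by 0.47 beside 0.02 and SEC62 by 0.29 beside -0.08. The neighbours of SSR3 and SEC62 were mixed, so these medians hide genes that moved alike. SSR3 had 6 of 14 higher and 4 lower, with GMPS (0.37) next to it on one side and TIPARP (-0.73) on the other. SEC62 had 4 higher and 7 lower, with PRKCI (0.36) on one side and MYNN (-0.31) on the other. SERP1 (on its brightest probe set) and MANF, both on chromosome 3, did not pass although 12 and 10 of their 14 neighbours were higher (neighbour medians 0.41 and 0.30). Across the 32 genes Pearson's r between a gene's difference and its neighbour median was 0.55 and Spearman's rho 0.54, and over all 7034 tested genes with a place r was 0.48. These are descriptions across genes that share arrays and stretches of chromosome. Of the 16 genes that passed, 12 (75%) had a neighbour median of the same sign, against 72.4% of all passed genes. Whether gene dosage differed between the cells was not tested.

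**Figure D4:**
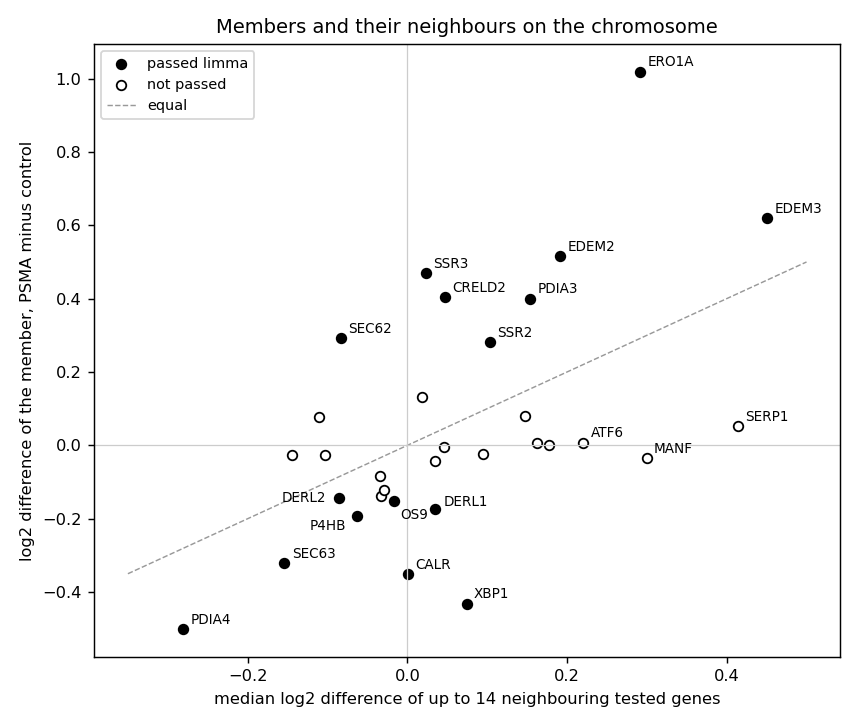
Log2 difference of each ER gene (vertical axis) against the median log2 difference of its neighbouring tested genes (horizontal axis). Filled points passed limma, open points did not, and the dashed line marks equal values. ERO1A and EDEM3 lie to the upper right, PDIA4 to the lower left, and XBP1 and CALR below 0 beside neighbours near 0.

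Genes of the same pathway outside the 37 were taken from 10 lists with 90 genes, of which 71 were tested. In total 20 rose (MBTPS2 among them, described with its list), 29 fell and 22 did not pass, so 69% passed, against 63.6% of all tested genes. The lists were drawn up with earlier results of these arrays known. The HSP70 system of the lumen had the largest shift of any list, with a median of -0.42: of 5 genes tested 4 fell and 1 rose. DNAJB9, a J protein induced through XBP1 that assists ERAD, read 189 ± 12.9 on arrays labelled PSMA and 332 ± 9.47 on arrays labelled control (SD, n = 3 each) and fell by 0.82 (limma adjusted p = 5.5e-06). DNAJC10, an ER disulphide reductase with a J domain, fell by 0.70. HSPA5, the HSP70 of the ER known as BiP, fell by 0.42 and read 3498 ± 214 on arrays labelled PSMA and 4685 ± 136 on arrays labelled control (SD, n = 3 each). DNAJC3, a cochaperone of BiP that also restrains PERK, rose by 0.35.

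The PERK branch had 4 of 6 tested genes lower, 1 higher and 1 not past the threshold, so 83.3% passed. Over all tested genes 63.6% passed, 30.1% higher and 33.5% lower. DDIT3, the stress transcription factor CHOP, fell by 0.74 and read 202 ± 13.6 on arrays labelled PSMA and 337 ± 9.93 on arrays labelled control (SD, n = 3 each). Asparagine synthetase, ASNS, a target of ATF4, fell by 0.53. EIF2S1, the eIF2alpha that PERK phosphorylates, rose by 0.18, and ATF4 itself differed by -0.04 without passing. Of genes for processing of ATF6 and IRE1 signals 2 of 7 rose and 3 fell: RTCB, the ligase that joins the ends of XBP1 mRNA, rose by 0.15, while CREB3L2, a transcription factor related to ATF6, fell by 0.40 and TMBIM6 by 0.29. The other gene counted as higher, MBTPS2, the protease that completes the release of ATF6, read 59.7, 60.8 and 61.7 on arrays labelled PSMA, against 50.5, 45 and 45 on arrays labelled control. Only the arrays labelled PSMA exceeded the filter value of 52.5, so a gene tested on that ground had to be higher, and its difference of 0.38 supports nothing.

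Other oxidoreductases and prolyl isomerases had 4 of 9 genes higher and 3 lower. The counts here stand beside 30.1% higher and 33.5% lower over all tested genes. PRDX4, a peroxidase that uses the hydrogen peroxide made in the ER, rose by 0.44 and TMX1 by 0.39, while FKBP14, a prolyl isomerase for collagen, fell by 0.52 and ERP44, which retains ERO1 in the early secretory pathway, by 0.25. Glycan trimming genes had 5 of 9 higher, led by UGGT2 (0.43), the paralog of UGGT1, and the deglycosylating enzyme NGLY1 (0.40), and 1 lower, the glucosidase gene MOGS (-0.37). In the oligosaccharyltransferase, which attaches glycans to new proteins, RPN2 rose (0.20) and 3 of 7 genes fell, by most MAGT1 (-0.28) and DDOST (-0.23). Other ERAD genes had 1 of 9 higher, FAF2 (0.24), and 3 lower, by most the ubiquitin ligase gene RNF139 (-0.27) and UFD1 (-0.15), a partner of the segregase VCP.

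Of the steps before and after entry, the signal peptidase had 2 of 4 genes higher, SPCS1 (0.21) and SPCS2 (0.14), and none lower. Over all tested genes 30.1% were higher and 33.5% lower. In the signal recognition particle and its receptor SRP9 (0.41) and SRP14 (0.16), which form the domain that pauses translation, rose, and 3 of 7 genes fell, by most both receptor subunits SRPRA (-0.28) and SRPRB (-0.26). SRP9 read 7309 ± 161 on arrays labelled PSMA and 5507 ± 59 on arrays labelled control (SD, n = 3 each). In the list of other translocon genes 5 of 8 fell, by most CAMLG (-0.34), a receptor for tail-anchored proteins, and RRBP1 (-0.33), a ribosome-binding protein of the ER membrane, and GET1 (0.16) rose.

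**Figure D5:**
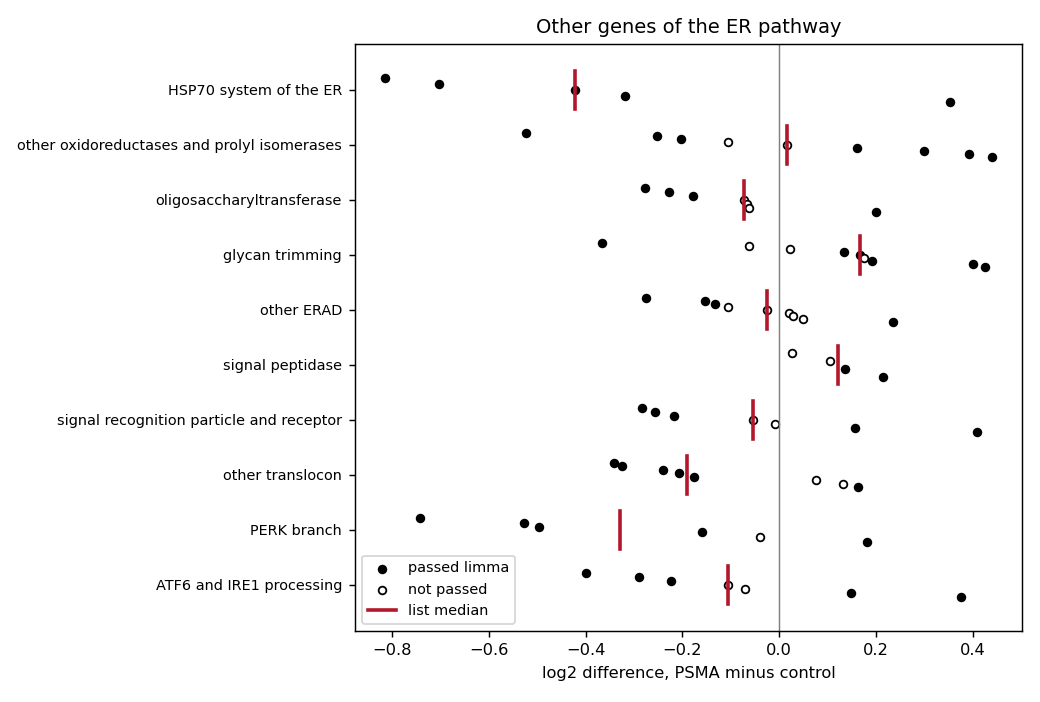
Log2 differences (PSMA minus control) of the 71 tested genes in the 10 other ER lists. Filled points passed limma, open points did not, and the vertical bar is the median of a list. The HSP70 system, with a median of -0.42, and the PERK branch, with -0.33, lie farthest to the left.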

How the data were processed

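The deposited table holds 1 intensity per probe set and array for 22277 probe sets, made by the authors with GCRMA per the submitters' processing notes, whose version is not given in the sources used here. GCRMA corrects background by base composition, normalizes arrays and summarises probes, and it compresses dim values. The scale is not stated. Values of 3.76 to 17455 with medians of 51.7 to 52.9 per array were taken as linear.

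Values were log2-transformed with no pseudocount. The 62 control probe sets were left out, as was any probe set that did not exceed 52.5 (the median of the table) on 3 or more of the 6 arrays, leaving 11303. Each of 7035 genes was represented by the brightest on average of its probe sets annotated to it alone. Of the single-symbol probe sets, 19052 of 19064 matched the RefSeq table (GRCh38.p14) by gene identifier, and 0 symbols changed. PSMA minus control was fitted over all 7035 genes with limma 3.58.1 in R 4.3.3 (lmFit, eBayes), with two-sided p-values adjusted by Benjamini-Hochberg and a threshold of 0.05. The script was tested on simulated data. Summaries and plots used pandas 2.3.3, numpy 2.4.6 and matplotlib 3.10.9 under Python 3.11.15. Every tested member is named. Array values are given for the 14 largest passed members and the sensors. In each other list the 2 largest increases and decreases past the threshold are named, and other genes named were chosen after their values were seen. Members and lists were chosen with earlier results of these data known. Protein sequences were not used here. Alternatives covered filters, pseudocount, floor, normalization, eBayes options, probe-set choice, a minimum fold and leaving out each array.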

Additional observations from a re-analysis of the deposited data

How the results depend on the processing

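No paired analysis was possible because the groups share no replicate number. Of the 16 ER genes that passed, 14 kept their call and direction in 14 alternatives, which exclude the minimum fold, and the exceptions were OS9 and DERL2. Both lost the call with no filter on dim probe sets, and OS9 also under quantile normalization and centring of arrays. Tested against a minimum fold of 1.5 with limma treat, 1 of 32 ER genes was called, 1 higher and 0 lower (at an unadjusted p under 0.05, also 1 higher and 0 lower), as were 1 of the 71 other pathway genes (DNAJB9) and 526 of all genes. Counted by probe set, 29 of 55 ER probe sets passed, 12 higher (the second of EDEM3 included) and 17 lower, against 6846 of all 11303 probe sets. In that count a gene with several probe sets enters more than once. Leaving out 1 array at a time gave 14 to 17 passed ER genes. Every sign that turned was of a gene that had not passed: HERPUD1 under quantile normalization (0.0081) and centring (0.014), HSP90B1 (-0.057) and SEL1L (-0.084) with the mean of all probe sets. Single probe sets, added after seeing the data, gave CANX 0.024, HSP90B1 -0.12, PDIA6 0.034, SEL1L -0.39 and SSR1 0.012. With single arrays left out, the range was -0.016 to 0.032 for ATF6, -0.039 to 0.054 for HSP90B1, -0.026 to 0.0099 for HERPUD1, -0.058 to 0.0042 for HYOU1 and -0.058 to 0.047 for EDEM1. The cause was not tested. Trend and robust settings of eBayes added SDF2L1, SEC61A1 and SSR1 to the calls, and the mean of all probe sets added SERP1. The probe set of ERN1 was too dim on all 6 arrays to be tested.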
